A study of Mus musculus with 32 samples.

Results

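The collagen chain genes were examined in sorted fetal mouse germ cells, as genes that the stroma around germ cells is known to express strongly. Members were the probes of the Mouse Gene 1.0 ST array that name a single gene of the form Col, number, a, number, and 46 of 35556 probes, for 44 genes, met this rule. They fell into 11 fibrillar probes, 6 basement membrane (type IV) probes and 29 probes of other chains. RNA came from germ cells sorted at 17.5 days post coitum (dpc) for EGFP, which the OG2 transgene drives from the Oct4 promoter, and every fetus carried that transgene. G1R germ cells (genotype FVBxOG2) were from fetuses whose dams took bisphenol A (BPA, 0.2 mg/kg/day), bis(2-ethylhexyl) phthalate (DEHP, 750 mg/kg/day) or vinclozolin (VZ, 100 mg/kg/day) in corn oil, or the oil alone, by mouth from 12.5 dpc. These 3 endocrine disruptors are called EDs here. G1R groups held 3 arrays of female germ cells (FGCs) and 3 of male germ cells (MGCs) for BPA, VZ and oil, and 2 FGC and 3 MGC arrays for DEHP. G2R germ cells (genotype OG2xFVB) were MGCs of fetuses sired by the exposed G1 males, with no exposure of their own, in DEHP, VZ and oil groups of 3 arrays each. This gave 32 arrays in 11 groups. The labels do not say whether the arrays of a group came from separate litters, so the p-values measure the spread between these arrays.

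Collagens are trimers of chains with long stretches of a repeated triplet, wound into a triple helix. Fibrillar chains such as those of types I, II, III, V and XI assemble into the fibers of connective tissue. Type IV chains form the sheet-like network of basement membranes, and in a fetal testis such a membrane surrounds each cord of Sertoli and germ cells. The other chains decorate or link fibrils (the FACIT group), make beaded filaments (type VI), or stay in the plasma membrane. Mesenchymal and peritubular cells are the usual source of types I, III and VI in a gonad.

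Signals were log2 values on the scale of robust multichip averaging (RMA), from 2.59 to 14.82, with array medians between 7.29 and 7.50. Each value of a probe is comparable between arrays and not with another probe. Of the 46 members, 43 had a mean signal above 6.57, the 90th percentile of 1035 olfactory receptor probes, whose genes should be silent here, and 69.3% of all probes did. Col8a1, Col10a1 and Col19a1 lay below it. Ddx4, an RNA helicase of germ cells, gave 11.69, 11.53 and 11.54 in oil FGCs, against 11.52, 11.69 and 11.66 in oil MGCs. The series holds no array of somatic cells, so these values cannot test the germ cell label. Of 6 germ cell genes, 3 were higher and 1 lower in oil FGCs, where 28.7% and 25.6% of all probes passed in these directions. Pou5f1, the gene whose promoter drives the sort marker, was lower in oil FGCs (-3.18 log2, adjusted p = 7.62e-10 by limma). In a sorted bulk sample, fewer cells of a type and less RNA per cell cannot be told apart. The 3 MGC arrays with the highest median over the stromal markers were BPA replicates 1 and 2 and DEHP replicate 2 of G1R. Main differences that rest on them are given with and without them. The fits without them estimated the variance anew, but the within-group SDs given below include them.

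The first question was which chains differed between FGCs and MGCs with no ED. In the oil groups, 28 of the 46 member probes were lower in FGCs and 3 were higher, where 25.6% of all probes passed as lower and 28.7% as higher. The fibrillar chains were almost all on the lower side, with 10 of 11 passing. Type IV chains were split, with 2 lower, 1 higher and 3 that missed the test. Of the 29 other probes, 16 were lower and 2 higher. The median difference was -0.29 log2 over the members, -0.42 over fibrillar, -0.13 over type IV and -0.32 over the other chains, against 0.05 over all probes and 0.24 over the olfactory receptor probes. The collagen median was thus opposite in sign to that of the receptor genes.

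**Figure D1:**
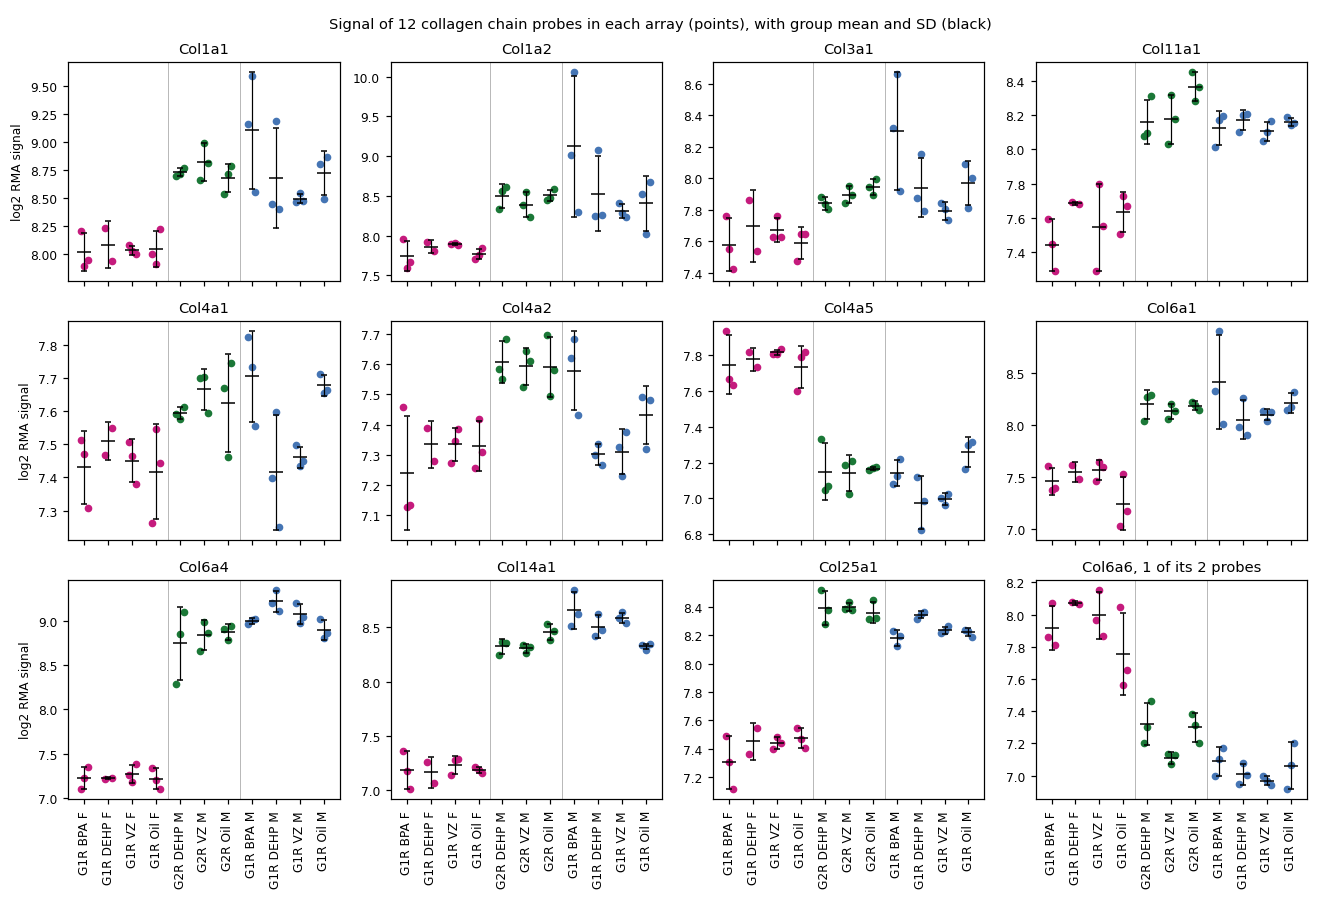
RMA signal (log2, y axis) of 12 collagen chain probes in each of the 32 arrays, by group (x axis: FGCs in pink, G2R MGCs in green, G1R MGCs in blue; points are arrays, black bars the group mean and SD). Col6a4, Col14a1 and Col25a1 separate the sexes in every array, whereas Col1a1, Col1a2 and Col3a1 are spread within the BPA and DEHP MGC groups, up to 10.06 for Col1a2.

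Among the fibrillar chains, Col1a1 and Col1a2, the chains of type I collagen of bone, skin and tendon, had the largest differences. Col1a1 signal was 8.00, 7.91 and 8.22 in oil FGCs, against 8.80, 8.50 and 8.87 in oil MGCs (-0.68 ± 0.19 log2, SE, adjusted p = 0.00384). Col1a2 was 7.71, 7.76 and 7.84 in oil FGCs, against 8.53, 8.02 and 8.67 in oil MGCs (-0.64 ± 0.26, adjusted p = 0.0427). The groups did not overlap for either chain, but oil MGC replicate 2 lay well under the other MGC arrays for Col1a2. The Col1a2 call was lost when any oil array except MGC replicate 2 was left out, with adjusted p values between 0.0631 and 0.159. Col11a1, a minor chain of cartilage fibrils, was more even, with 7.50, 7.73 and 7.67 in oil FGCs, against 8.19, 8.14 and 8.16 in oil MGCs (-0.53 ± 0.10, adjusted p = 0.00011). Col5a2, which co-assembles with type I, was 6.70, 6.74 and 6.91 in oil FGCs, against 7.25, 7.22 and 7.20 in oil MGCs (-0.44 ± 0.11, adjusted p = 0.00122). Both of these chains thus kept MGC arrays within a narrow band. Col3a1, the type III chain of soft tissues and vessels, was 7.47, 7.65 and 7.65 in oil FGCs, against 8.09, 7.81 and 8.00 in oil MGCs (-0.38 ± 0.13, adjusted p = 0.0154), and its call was lost without oil MGC replicate 1 (adjusted p = 0.072) or oil FGC replicate 1 (adjusted p = 0.0702). The other passing fibrillar probes, Col2a1, Col5a1, Col5a3, Col11a2 and Col27a1, lay between -0.44 and -0.23. Col24a1 was the exception in the class, with a difference of -0.0046 ± 0.085 (adjusted p = 0.969).

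The start of Col1a2 is shown because its probe had the widest spread of all members between arrays of the same group. The window runs from 250 bases before to 50 after the gene's start, from RefSeq on GRCm38.p6, chr6:4505368-4505667, plus strand. Capitals mark GC boxes (GGGCGG, or CCGCCC on the other strand) and CCAAT boxes (CCAAT or ATTGG). These boxes do not overlap one another here.
Col1a2: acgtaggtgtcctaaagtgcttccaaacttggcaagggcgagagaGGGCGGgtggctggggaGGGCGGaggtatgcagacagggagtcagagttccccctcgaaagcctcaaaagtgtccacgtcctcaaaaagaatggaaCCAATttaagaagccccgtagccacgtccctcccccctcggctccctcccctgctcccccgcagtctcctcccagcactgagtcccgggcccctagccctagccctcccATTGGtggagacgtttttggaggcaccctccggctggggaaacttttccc
The window held 2 GC boxes and 2 CCAAT boxes, and no TATAAA. Of 38 windows available for 35 of the 44 collagen genes, 23 (60.5%) held a GC box, 13 (34.2%) a CCAAT box and 5 (13.2%) TATAAA or its complement TTTATA. Among all 32851 mouse windows the shares were 35.7%, 37.4% and 13.6%. By class, the GC box was in 6 of 8 fibrillar, 4 of 5 type IV and 13 of 25 other windows. The CCAAT box was in 3, 3 and 7 of them in the same order of classes, and TATAAA in 2, 0 and 3.

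The type IV chains did not move as a class. Col4a1, which forms the most widespread type IV trimer together with Col4a2, was 7.26, 7.54 and 7.44 in oil FGCs, against 7.71, 7.65 and 7.66 in oil MGCs (-0.26 ± 0.09, adjusted p = 0.0181). Its partner Col4a2 was 7.26, 7.42 and 7.31 in oil FGCs, against 7.49, 7.32 and 7.48 in oil MGCs, with overlapping groups (-0.10 ± 0.09, adjusted p = 0.33). Col4a3, a chain of specialized membranes such as that of the kidney filter, passed narrowly (-0.24 ± 0.10, adjusted p = 0.0458). Both lower calls were lost with cyclic loess scaling (Col4a1 -0.17, adjusted p = 0.102, and Col4a3 -0.14, adjusted p = 0.177). The Col4a1 call was also lost without oil MGC replicate 1 (adjusted p = 0.0556) or oil FGC replicate 1 (adjusted p = 0.126), and that of Col4a3 without any oil array but MGC replicate 2 or FGC replicate 3 (adjusted p 0.0702 to 0.17). Col4a5, the X-linked chain that joins Col4a3 and Col4a4 in the kidney trimer, went the other way. It was 7.60, 7.79 and 7.82 in oil FGCs, against 7.16, 7.30 and 7.31 in oil MGCs (0.48 ± 0.09, adjusted p = 7.15e-05). Its X-linked neighbor Col4a6 had a difference of 0.14 ± 0.11 (adjusted p = 0.295), and Col4a4 one of -0.15 ± 0.10 (adjusted p = 0.23).

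Type IV genes lie in pairs that start back to back, and the windows of both members of the Col4a1 and Col4a2 pair are shown because the pair shares its start region while only one member passed. They are chr8:11312777-11313076, minus strand, for Col4a1 and chr8:11312555-11312854, plus strand, for Col4a2 (RefSeq, GRCm38.p6), and they share 78 bases. Col4a5 is shown as the type IV chain higher in FGCs, at chrX:141475169-141475468, plus strand. Capitals again mark GC and CCAAT boxes on either strand.
Col4a1: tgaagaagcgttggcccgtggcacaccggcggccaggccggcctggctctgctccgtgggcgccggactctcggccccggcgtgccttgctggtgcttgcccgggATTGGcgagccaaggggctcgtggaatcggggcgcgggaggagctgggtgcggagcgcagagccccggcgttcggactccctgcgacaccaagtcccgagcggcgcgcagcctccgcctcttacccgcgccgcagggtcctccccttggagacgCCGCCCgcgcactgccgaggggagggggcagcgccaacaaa
Col4a2: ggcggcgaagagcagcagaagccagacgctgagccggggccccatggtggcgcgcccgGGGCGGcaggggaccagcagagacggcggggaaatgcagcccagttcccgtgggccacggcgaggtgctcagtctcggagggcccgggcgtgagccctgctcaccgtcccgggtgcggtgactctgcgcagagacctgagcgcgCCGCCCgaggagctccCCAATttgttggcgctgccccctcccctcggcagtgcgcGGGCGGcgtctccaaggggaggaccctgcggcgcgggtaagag
Col4a5: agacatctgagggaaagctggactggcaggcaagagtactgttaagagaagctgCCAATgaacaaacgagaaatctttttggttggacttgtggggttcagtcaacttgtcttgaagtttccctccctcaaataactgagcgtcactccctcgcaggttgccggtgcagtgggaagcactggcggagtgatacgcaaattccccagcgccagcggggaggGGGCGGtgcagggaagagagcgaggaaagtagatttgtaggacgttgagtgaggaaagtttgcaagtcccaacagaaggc
The Col4a2 window held 3 GC boxes and 1 CCAAT box, and the Col4a1 and Col4a5 windows 1 of each. The GC box of Col4a1 lies in the shared bases and is the last of the 3 printed for Col4a2, so it is counted in both windows. The windows of Col4a5 and Col4a6 did not overlap, with 842 bases between them.

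The largest sex differences were outside the fibrillar and type IV classes. Col6a4, a type VI chain of the mouse, was 7.34, 7.20 and 7.11 in oil FGCs, against 9.02, 8.81 and 8.86 in oil MGCs (-1.68 ± 0.13, adjusted p = 4e-11). Col14a1, a FACIT chain that binds fibril surfaces, was 7.21, 7.19 and 7.16 in oil FGCs, against 8.33, 8.30 and 8.35 in oil MGCs (-1.14 ± 0.09, adjusted p = 2.17e-11). Both chains were far apart between the sexes in the oil arrays, with groups that did not overlap. Col6a1 and Col6a2, obligate partners of the beaded filament, followed. Col6a1 was 7.03, 7.53 and 7.17 in oil FGCs, against 8.14, 8.17 and 8.32 in oil MGCs (-0.97 ± 0.15, adjusted p = 4.19e-06). Col6a2 was 7.73, 7.66 and 7.68 in oil FGCs, against 8.65, 8.52 and 8.61 in oil MGCs (-0.91 ± 0.14, adjusted p = 3.09e-06). Col6a3, which joins them in that filament, did not pass, with 7.16, 7.20 and 7.13 in oil FGCs, against 7.29, 7.15 and 7.40 in oil MGCs (-0.12 ± 0.13, adjusted p = 0.447). The type VI chains were therefore not lower as a set.

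The next 3 chains were named after their values were seen, for differences above 0.59 log2 with little spread. Col25a1, a transmembrane collagen, was lower in oil FGCs by -0.75 ± 0.08 (adjusted p = 8.12e-09). Col17a1, the transmembrane chain of epithelial hemidesmosomes, was lower by -0.60 ± 0.08 (adjusted p = 1.02e-06), and Col26a1, first described in testis and ovary, by -0.60 ± 0.08 (adjusted p = 3.82e-07). On the higher side, Col20a1, a FACIT chain, was 7.78, 7.68 and 7.84 in oil FGCs, against 7.54, 7.25 and 7.37 in oil MGCs (0.38 ± 0.10, adjusted p = 0.00157). The probes of 2 genes with a pair of probes each behaved differently. For Col6a6, probe 10596394 was higher in oil FGCs, with 8.05, 7.56 and 7.65 against 6.92, 7.07 and 7.20 in oil MGCs (0.69 ± 0.11, adjusted p = 3.29e-06), whereas probe 10596383 had a difference of -0.18 ± 0.08 (adjusted p = 0.0693). No direction can be given for Col6a6. For Col6a5, both probes were lower in oil FGCs (-0.60 and -0.34, adjusted p = 5.36e-05 and 0.0327). Besides that Col6a6 probe, only Col4a5 and Col20a1 were higher in oil FGCs. Each of these has 1 member probe, so no second probe could be compared.

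**Figure D2:**
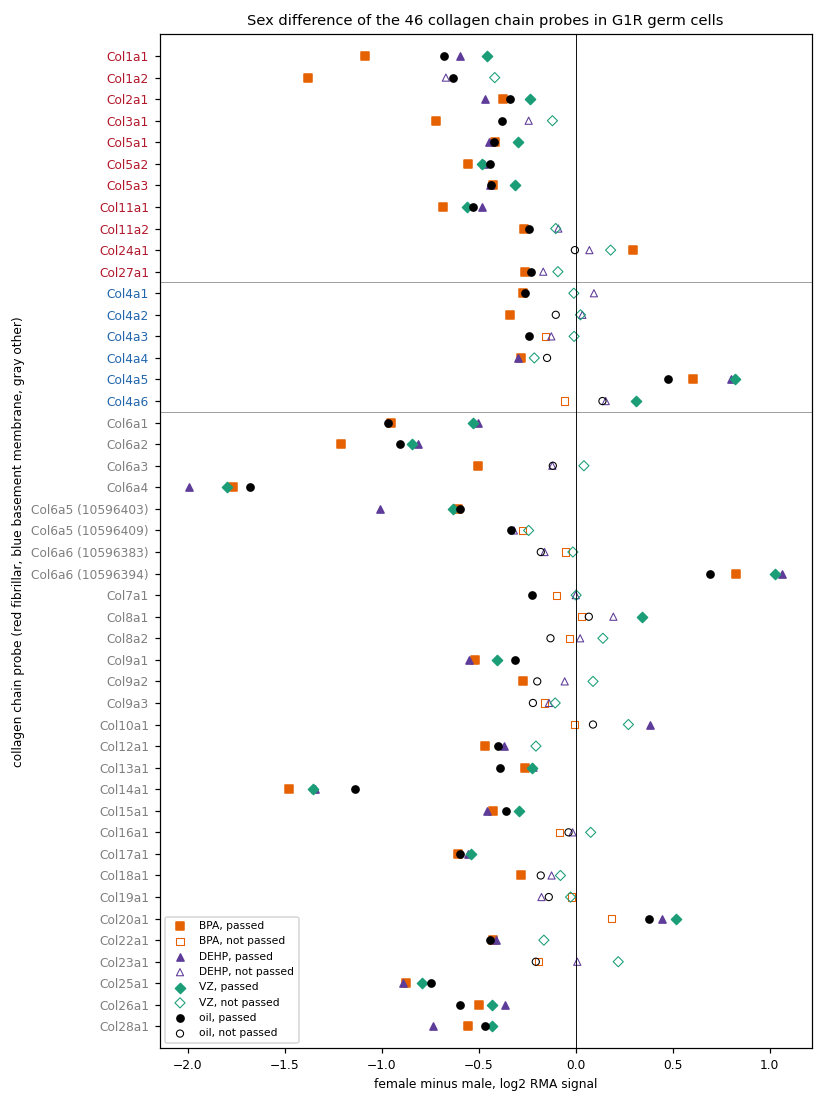
Female minus male log2 RMA signal (x axis) of each of the 46 collagen chain probes (y axis, by class) in BPA, DEHP, VZ and oil G1R germ cells, with filled symbols for an adjusted p under 0.05. Col6a4 and Col14a1 lie farthest left in all 4 comparisons, Col4a5 and 1 probe of Col6a6 lie right of 0, and Col1a2 reaches -1.38 with BPA.

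The sex difference was then measured in the ED groups, which share no array with the oil groups or with each other. With BPA, 30 member probes were lower and 3 higher in FGCs, where 25.1% and 30.6% of all probes passed in these directions. With DEHP there were 20 lower (23.6% of all probes) and 4 higher (28.5%). With VZ there were 18 lower (24.5%) and 5 higher (31%). By class, the lower probes were 10, 6 and 6 of the 11 fibrillar ones with BPA, DEHP and VZ, 3, 1 and 0 of the 6 type IV ones, and 17, 13 and 12 of the 29 others. The median member difference was -0.31, -0.23 and -0.14, against 0.08, 0.09 and 0.11 over all probes. In all 4 comparisons 17 probes were lower, 6 fibrillar, 11 of other classes and none of type IV. The share of all probes called in the same direction in all 4 was not counted, so the 17 cannot be set against it. The Col1a1 call with DEHP was lost without DEHP MGC replicate 2 (-0.34, adjusted p = 0.171) or FGC replicate 2 (-0.45, adjusted p = 0.196), or with only the arrays compared (adjusted p = 0.0958). Without that MGC array and BPA MGC replicates 1 and 2 together its difference with DEHP was again -0.34. The BPA arrays enter that comparison only through the pooled variance, so this fit is no separate support for the call. With VZ the Col1a1 call (-0.46, adjusted p = 0.0433) was lost with unmoderated least squares (adjusted p = 0.0576) and without any 1 of the 6 VZ arrays (adjusted p from 0.0676 to 0.0998). The Col6a1 call with DEHP (-0.50, adjusted p = 0.0136) was lost without DEHP MGC replicate 2 (adjusted p = 0.0705) or FGC replicate 2 (adjusted p = 0.106). The 17 included Col1a1, Col11a1, Col6a1, Col6a2, Col6a4, Col14a1, Col17a1, Col25a1 and Col26a1. Col4a5 and Col6a6 probe 10596394 were higher in all 4. Higher in some were Col24a1 (0.30) with BPA, Col10a1 (0.38) and Col20a1 (0.44) with DEHP, and Col4a6 (0.31), Col8a1 (0.34) and Col20a1 (0.52) with VZ. The olfactory receptor probes had medians of 0.21 with BPA, 0.31 with DEHP and 0.29 with VZ. The values of Col10a1, Col4a6 and Col8a1 lay near these medians. Col8a1 and Col10a1 also have dim signal, as does Col4a6 in VZ MGCs. Col4a5 differed by 0.60 ± 0.09 with BPA, 0.80 ± 0.10 with DEHP, 0.82 ± 0.09 with VZ and 0.48 ± 0.09 with oil. Col6a4 differed by -1.77 with BPA, -1.99 with DEHP, -1.80 with VZ and -1.68 with oil, a narrow band for these 4 sets of arrays. Col1a2 did not keep such a band, with -1.38 with BPA, -0.67 with DEHP, -0.42 with VZ and -0.64 with oil, and it missed the test with DEHP (adjusted p = 0.0579) and VZ (adjusted p = 0.18). These misses were not stable. With DEHP Col1a2 passed with the filter on dim probes, cyclic loess, a replicate block, or without DEHP MGC replicate 1 or 3. The adjusted p values by limma were from 0.0308 to 0.0485. Without the 3 arrays of high stromal signal its difference with DEHP was smaller (-0.40). With VZ Col1a2 passed with only the arrays compared (adjusted p = 0.00327). Col3a1 was lower with BPA by -0.72 (adjusted p = 3.48e-05) and missed the test with DEHP (-0.24, adjusted p = 0.169) and VZ (-0.12, adjusted p = 0.447). Without the 3 arrays of high stromal signal, which leaves 1 BPA MGC array, Col3a1 differed by -0.34 with BPA and -0.14 with DEHP. No sex by ED term passed, with 0 of 46 members and 0% of all probes called for each ED by limma. Before adjustment p was under 0.05 for 3, 5 and 4 members with BPA, DEHP and VZ, and for 4.84%, 7.47% and 6.21% of all probes. The smallest were those of Col14a1 (-0.34), Col24a1 (0.30) and Col6a3 (-0.39) for BPA, with adjusted p from 0.969 to 1. For DEHP they were Col4a1 (0.35), Col6a5 probe 10596403 (-0.41) and Col4a5 (0.32), with adjusted p from 0.579 to 0.621. For VZ they were Col23a1 (0.43), Col4a5 (0.34) and Col6a6 probe 10596394 (0.33), each with an adjusted p of 0.797.

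Genes that make, bind or break down collagens were counted in the same oil comparison. In it 25.6% of all probes passed as lower and 28.7% as higher. Of 25 measured genes of synthesis and crosslinking, 20 were lower and 3 higher in oil FGCs, with a median of -0.64. Plod2, a lysyl hydroxylase that sets the type of crosslink, was 7.38, 7.70 and 7.20 in oil FGCs, against 9.79, 9.85 and 9.80 in oil MGCs (-2.39 ± 0.13, adjusted p = 3.67e-14). Plod1, of the same family, differed by -1.71 (adjusted p = 1.48e-14) and P4ha3, a prolyl hydroxylase subunit, by -2.02 (adjusted p = 1.74e-13). The higher genes were Plod3, P3h1 and Colgalt1, which also modify collagen chains. Adamts3, a procollagen N-propeptidase, has 16 probes, all lower in oil FGCs by -2.33 to -1.25. All 7 measured collagen receptors were lower in oil FGCs. Ddr1, a receptor tyrosine kinase that collagen activates, was 7.04, 7.24 and 7.40 in oil FGCs, against 10.16, 10.08 and 9.83 in oil MGCs (-2.79, adjusted p = 1.31e-16). Itga11 and Itga1, integrin chains, differed by -1.51 and -1.05. Of 9 genes of collagen degradation, 5 were lower and none higher. Mmp2, a gelatinase, was 6.46, 6.34 and 6.76 in oil FGCs, against 10.39, 10.54 and 10.45 in oil MGCs (-3.94, adjusted p = 2.39e-18), followed by Mmp9 (-1.29) and Mrc2 (-0.58), an uptake receptor for collagen. Of 14 measured partners of type IV in basement membranes, 7 were lower and 3 higher. The laminin chains Lamb1 (-1.68), Lama1 (-1.28) and Lama3 (-1.19) were lower, whereas Lamc1 (0.69), Lama4 (0.55) and Agrn (0.90), agrin, were higher in oil FGCs.

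Markers of some somatic cells were also lower. In oil FGCs, where 25.6% of all probes were lower, 9 of 12 non-collagen stromal genes were lower and 1 higher (Nr2f2), with a median of -0.93. Of the peritubular genes 4 of 5 were lower, of the endothelial genes 6 of 7 and of the granulosa genes 3 of 6. Of the fetal Leydig genes 2 of 5 were lower, and the counts of Sertoli genes (2 of 8) and of macrophage and blood genes (1 of 4) were at the share of all probes. No gene of these 6 lists was higher in oil FGCs. The Sertoli median was nonetheless -0.46, against 0.05 over all probes. With BPA, DEHP and VZ, 8, 1 and 5 of the 8 Sertoli genes were lower in FGCs, against 25.1%, 23.6% and 24.5% of all probes. Foxl2, the defining granulosa gene, gave 6.96 in oil FGCs, against 6.91 in oil MGCs. Relative to the mean of the oil MGCs, the median of the stromal list lay between -1.21 and -0.84 in all 11 FGC arrays and between -0.10 and 1.41 in all 21 MGC arrays. Array signals have no true zero, so no marker can be called absent. The part of these cells in the collagen differences was not tested.

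The spread between arrays of a group separated chains that had similar sex differences. Col1a2 had a pooled within-group SD of 0.34 log2, higher than that of 91.4% of all probes, and Col1a1 one of 0.25, higher than that of 81.5%. Col6a1, Col6a2 and Col3a1 had SDs of 0.19, 0.17 and 0.16. By contrast Col14a1 (0.10), Col17a1 (0.09), Col25a1 (0.09) and Col26a1 (0.09) were among the steadiest, below at least 90% of all probes. Col6a4, with the largest sex difference, had an SD of 0.17. In these pooled values the type I chains thus varied between arrays of a group more than chains with sex differences as large. The SDs include the 3 arrays of high stromal signal and were not recomputed without them. Col1a2 was 9.01, 10.06 and 8.30 in BPA, 8.53, 8.02 and 8.67 in oil and 8.41, 8.28 and 8.24 in VZ G1R MGCs. Its spread thus differed between groups. Over all groups, Col1a1 ran between 7.89 and 8.23 in the 11 FGC arrays (median 8.00), and between 8.40 and 9.59 in the 21 MGC arrays (median 8.72). Col1a2 ran between 7.60 and 7.96 in FGCs, against 8.02 and 10.06 in MGCs. Col6a1 (7.03 to 7.64 in FGCs, 7.91 to 8.90 in MGCs) and Col6a2 (7.31 to 7.76 in FGCs, 8.12 to 8.93 in MGCs) likewise did not overlap between the sexes. Col3a1 (7.43 to 7.86 in FGCs, 7.73 to 8.66 in MGCs), Col4a1 (7.26 to 7.55 in FGCs, 7.25 to 7.82 in MGCs), Col4a2 (7.13 to 7.46 in FGCs, 7.23 to 7.69 in MGCs) and Col6a3 (6.85 to 7.30 in FGCs, 7.02 to 7.80 in MGCs) overlapped. BPA MGC replicate 2 was the highest array for Col1a1, Col1a2, Col3a1, Col6a1, Col6a2 and Col6a3, but not for Col4a1 or Col4a2.

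**Figure D3:**
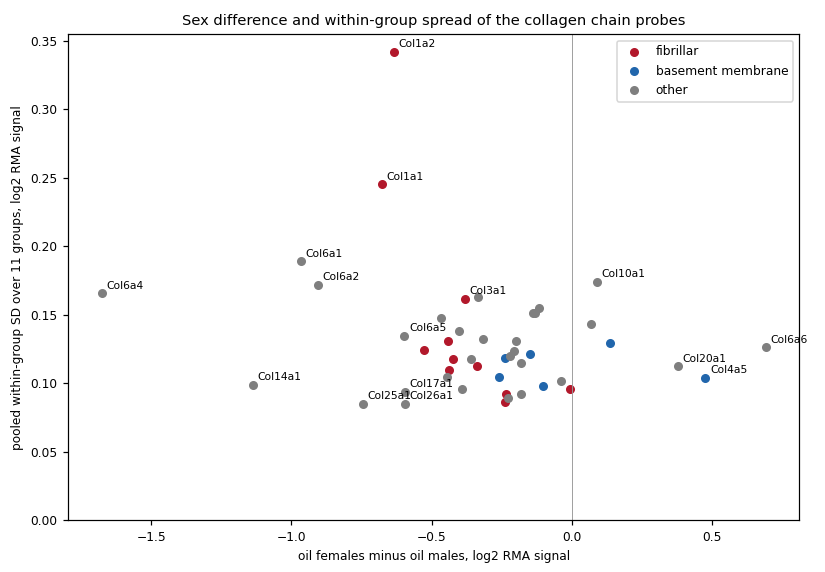
Oil FGC minus oil MGC difference (x axis, log2 RMA signal) against the pooled within-group SD over the 11 groups (y axis, log2 RMA signal) for the 46 probes, colored by class. Col1a2 (0.34) and Col1a1 (0.25) stand above all other members, while Col14a1, Col25a1, Col17a1 and Col26a1 combine a difference below -0.59 with an SD of 0.10 or less.

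The second question was whether exposure changed the chains, each ED group being set against the oil group of its sex and generation. No collagen probe passed by limma in any of the 8 comparisons. Among all probes 0.00562% passed with DEHP and the same share with VZ in G1R MGCs, and 0% in the other 6. The comparisons within a sex and generation share their oil arrays. Before adjustment, p was under 0.05 for 4, 14 and 16 of the 46 members in G1R MGCs with BPA, DEHP and VZ, for 1, 2 and 2 in FGCs, and for 1 and 0 in G2R MGCs with DEHP and VZ. Over all probes the shares were 6.96%, 14.4% and 18.3% in G1R MGCs, 4.56%, 6.28% and 5.96% in FGCs, and 6.91% and 5.41% in G2R MGCs, in the same order of EDs.

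With BPA in MGCs, type I collagen was high in some arrays only. Col1a2 was 9.01, 10.06 and 8.30 in BPA MGCs, against 8.53, 8.02 and 8.67 in oil MGCs (0.72 ± 0.26, adjusted p = 0.516). Col1a1 was 9.16, 9.59 and 8.55 in BPA MGCs, against 8.80, 8.50 and 8.87 in oil MGCs. Col3a1 was 8.32, 8.66 and 7.92 in BPA MGCs, against 8.09, 7.81 and 8.00 in oil MGCs (0.33 ± 0.13, adjusted p = 0.583). In all 3 chains BPA replicates 1 and 2 were above every oil array and replicate 3 was not. The fibrillar class did not rise with them. In replicates 1, 2 and 3, 3, 4 and 3 of 11 fibrillar probes were above every oil array. The counts were 3, 2 and 1 of 6 type IV and 4, 6 and 2 of 29 other probes. Of all probes 23.8%, 21.9% and 20.9% were. Relative to oil MGCs the fibrillar median was -0.06, -0.03 and -0.05. Without replicate 3, Col1a2 (1.13, adjusted p = 0.00977) and Col3a1 (0.52, adjusted p = 0.0275) passed, the only members to do so. The share of all probes passing in that fit was not counted. Without replicates 1 and 2 of BPA and replicate 2 of DEHP, chosen after seeing the data, Col1a2 had a difference of -0.11 and no member passed. The BPA MGC group is then a single array, assumed to vary like the other groups. The sex difference with BPA then had 20 lower and 2 higher probes, and that of Col1a2 was -0.55 (adjusted p = 0.0151). Col4a1, Col4a2 and Col6a3 then no longer passed in that comparison (adjusted p = 0.422, 0.222 and 0.506).

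Other stromal genes were high in the same arrays. Dcn, decorin, a proteoglycan that coats collagen fibrils, was 9.55, 10.90 and 7.73 in BPA MGCs, against 7.99, 7.14 and 8.63 in oil MGCs. Of the 12 measured stromal genes, 9 in BPA replicate 1 and 11 in replicate 2 were above every oil MGC array, and 1 in replicate 3. Of all probes, 23.8%, 21.9% and 20.9% were above every oil MGC array in replicates 1, 2 and 3. All 8 Sertoli genes were above every oil array in replicates 1 and 2 and none in replicate 3, and Amh, a Sertoli cell hormone, was 10.13, 9.01 and 6.80 in BPA MGCs, against 7.54, 6.84 and 7.59 in oil MGCs. All 5 fetal Leydig genes were above every oil array in replicates 1 and 2, and 1 was in replicate 3. Relative to oil MGCs, the median of the germ cell list was -0.04, -0.04 and 0.09 in the 3 BPA arrays. The other somatic lists were mixed. Above every oil array in replicates 1, 2 and 3 were 2, 5 and 2 of 5 peritubular genes. For 7 endothelial genes the counts were 2, 4 and 0, and for 6 granulosa genes 2, 2 and 1. For 4 macrophage and blood genes they were 2, 1 and 0. The stromal, Sertoli and Leydig lists were high in the same 2 arrays as the type I and III signal. Their part in it was not tested.

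**Figure D4:**
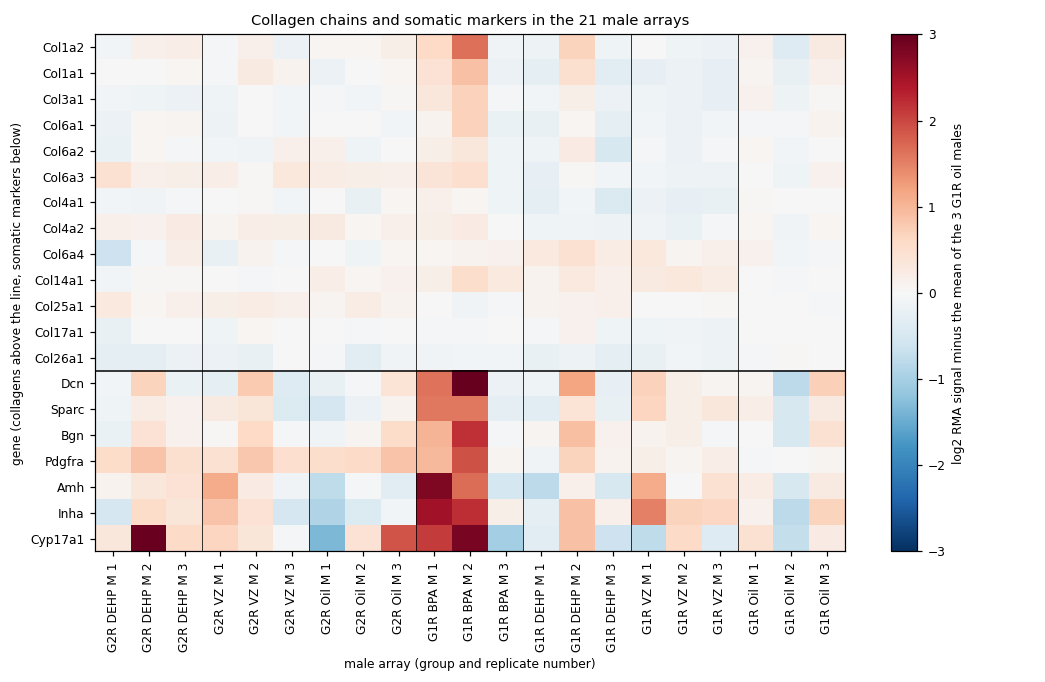
Log2 RMA signal minus the mean of the 3 G1R oil MGC arrays (color, from -3 to 3) of 13 collagen chains (above the line) and 7 somatic markers (below it) in the 21 MGC arrays (columns, by group and replicate). BPA replicates 1 and 2 are red for Col1a1, Col1a2, Col3a1 and for Dcn, Sparc, Bgn, Pdgfra, Amh, Inha and Cyp17a1, while Col25a1, Col17a1 and Col26a1 are near 0 in those arrays.

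The collagen I signal and the Sertoli and Leydig markers did not always travel together. DEHP replicate 2 resembled the BPA arrays in stromal genes, with 9.11 for Dcn, 9.19 for Col1a1 and 9.07 for Col1a2, and 9 of 12 stromal, 4 of 5 Leydig and 3 of 8 Sertoli genes above every oil array. In that array 7 of 11 fibrillar, 0 of 6 type IV and 9 of 29 other probes were above every oil array, as were 27% of all probes. In VZ replicate 1 all 8 Sertoli genes were above every oil array, with 8.44 for Amh, with 3 of 12 stromal genes and 27.1% of all probes above it, and Col1a2 was 8.41. In G2R MGCs, DEHP replicate 2 had the highest signal of Cyp17a1, a steroidogenic enzyme of Leydig cells, in the series (11.90), with 8.56 for Col1a2. Its median over the Leydig genes was 1.78 above the oil G1R MGCs, and that over the stromal genes 0.35, close to the stromal 0.38 of G1R DEHP replicate 2. Col1a2 was thus above every oil array in the 3 G1R arrays named first, and within the oil range in the last pair.

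With DEHP and VZ, the G1R MGC arrays were a little below oil over many chains. Every VZ array was below every oil array for 24 of the 46 probes (6 fibrillar, 4 type IV, 14 other), a pattern that 14.8% of all probes showed. For DEHP the count was 17 (2, 3 and 12 in the same classes), against 10.9% of all probes. In the other direction, 1 member with VZ and 4 with DEHP had every array above every oil array, against 12.7% and 9.81% of all probes. The median difference was -0.16 with VZ and -0.10 with DEHP over the members, against -0.01 for both over all probes. The olfactory receptor probes had medians of -0.12 with VZ and -0.10 with DEHP, close to those of the members. The smallest member p values with VZ were those of Col8a2 (-0.45 ± 0.12, adjusted p = 0.096), Col4a3 (-0.35 ± 0.10, adjusted p = 0.0997) and Col11a2 (-0.25 ± 0.08, adjusted p = 0.111), and all missed the test. With array quality weights 6 members passed with VZ, these 3 among them. The share of all probes passing with those weights was not counted. The smallest p values with DEHP were those of Col7a1, the anchoring fibril chain (-0.25 ± 0.08, adjusted p = 0.165), Col4a5 (-0.28 ± 0.09, adjusted p = 0.167) and Col10a1 (-0.41 ± 0.14, adjusted p = 0.186), which also missed the test.

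**Figure D5:**
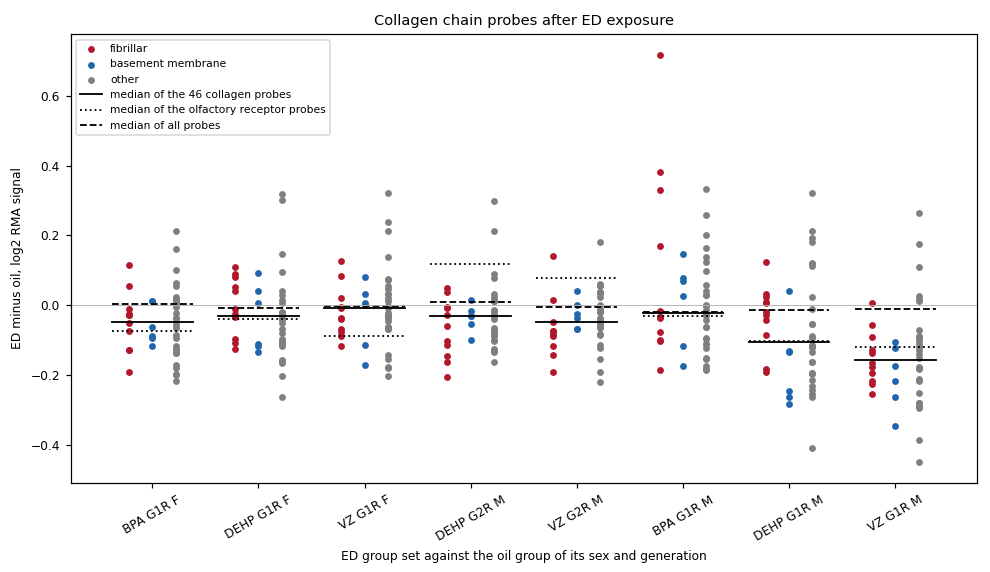
ED minus oil difference (y axis, log2 RMA signal) of each collagen chain probe in the 8 exposure comparisons (x axis), colored by class, with the median of the members (solid), of the olfactory receptor probes (dotted) and of all probes (dashed). In VZ and DEHP G1R MGCs the member median (-0.16 and -0.10) lies near the receptor median (-0.12 and -0.10), and in BPA MGCs Col1a2 (0.72) stands apart.

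Col14a1 ran against this shift. It was 8.51, 8.85 and 8.62 in BPA, 8.42, 8.62 and 8.48 in DEHP and 8.58, 8.64 and 8.54 in VZ G1R MGCs, against 8.33, 8.30 and 8.35 in oil MGCs. All 9 exposed arrays were above the 3 oil arrays that the comparisons share, but no difference passed (0.33, 0.18 and 0.26, adjusted p = 0.288, 0.341 and 0.127). Among all probes, 9.81% had every DEHP array and 12.7% every VZ array above every oil array. The share with all 9 above was not counted. In G2R MGCs Col14a1 was 8.25, 8.37 and 8.36 with DEHP and 8.34, 8.26 and 8.32 with VZ, against 8.53, 8.38 and 8.46 with oil. There both ED groups were below oil without passing (-0.14 and -0.15, adjusted p = 0.804 and 0.935). The generation by ED term for Col14a1 was -0.32 for DEHP and -0.42 for VZ (adjusted p = 0.27 and 0.131). No member and 0% of all probes passed in the generation by ED terms by limma. The smallest p values were those of Col8a1 (0.53, adjusted p = 0.188), Col8a2 (0.48, adjusted p = 0.24) and Col14a1 for DEHP, and of Col14a1, Col8a2 (0.51, adjusted p = 0.176) and Col10a1 (0.57, adjusted p = 0.178) for VZ.

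In FGCs the 3 members with the smallest p in each comparison all missed the test. With BPA they were Col25a1 (-0.17), Col20a1 (-0.20) and Col11a1 (-0.19), each with an adjusted p of 1. With DEHP they were Col6a6 probe 10596394 (0.32, adjusted p = 0.743), Col15a1 (-0.26, adjusted p = 0.763) and Col6a1 (0.30, adjusted p = 0.84). With VZ they were the same Col6a6 probe (0.24, adjusted p = 0.808), Col6a1 (0.32, adjusted p = 0.811) and Col12a1 (0.21, adjusted p = 0.863). For Col6a1 the exposed arrays, 7.61 and 7.48 with DEHP and 7.46, 7.64 and 7.59 with VZ, overlapped the oil FGCs at 7.03, 7.53 and 7.17. In G2R MGCs the smallest were Col8a1 (0.30, adjusted p = 0.675), Col11a1 (-0.21, adjusted p = 0.729) and Col24a1 (-0.16, adjusted p = 0.743) with DEHP. With VZ they were Col11a1 (-0.19), Col6a6 probe 10596394 (-0.19) and Col19a1 (-0.22), each with an adjusted p of 0.935. The member medians in G2R MGCs were -0.03 with DEHP and -0.05 with VZ.

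The third comparison was of G2R with G1R oil MGCs, in which the generation, the direction of the cross and the array run, by the numbering in the study's supplement, cannot be told apart. Of the 46 members, 1 was higher and 4 were lower in G2R oil MGCs, shares like those of all probes, of which 5% were higher and 5.3% lower. None of the 5 was a fibrillar or type IV chain. Col6a5 probe 10596403 was 8.25, 8.39 and 8.31 in G2R oil MGCs, against 7.79, 8.18 and 7.89 in G1R oil MGCs (0.36 ± 0.11, adjusted p = 0.0391), and probe 10596409 did not pass (0.14, adjusted p = 0.509). The short network chains Col8a1 (-0.37), Col8a2 (-0.40) and Col10a1 (-0.44), which build hexagonal lattices in cornea, vessels and growth plates, and Col9a2 (-0.34), a FACIT chain of cartilage, were lower (adjusted p between 0.0402 and 0.0456). Col10a1 was 5.91, 6.19 and 6.62 in G2R oil MGCs, against 6.71, 6.56 and 6.77 in G1R oil MGCs, so the groups overlapped. Col8a1 and Col10a1 are also among the 3 members with dim signal. No lower call was left with cyclic loess scaling, and none in either direction when only these 2 groups were fitted. Leaving out 1 oil array at a time left 0 to 1 higher and 0 to 2 lower. The olfactory receptor probes had a median of -0.16 in this comparison. Type I and III chains were close, with 8.54, 8.72 and 8.79 for Col1a1 in G2R oil MGCs, against 8.80, 8.50 and 8.87 in G1R oil MGCs.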

How the data were processed

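RNA of 32 sorted germ cell samples had been hybridized to Mouse Gene 1.0 ST arrays. The authors normalized the arrays with RMA in Partek (per the labels and methods), and the deposited log2 signals were used unchanged. The software version is not given in the sources used here. Probes carry a gene name where the platform annotation gives 1 symbol (21789 probes, with 1621 naming several and 12146 none), and all 46 member symbols matched GRCm38.p6 by gene identifier.

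One linear model with a mean for each group covered the 35556 probes (limma 3.58.1, R 4.3.3, 21 residual and 3.67 prior degrees of freedom), with Benjamini-Hochberg adjustment over all probes and a threshold of 0.05. SEs are those of the moderated fit. For genes with several probes outside the members, the probe of highest mean signal was used. Members, classes, gene lists and alternatives were chosen with earlier results of these data known. Named were all members passing in an ED or generation comparison, otherwise the 3 of smallest p, and the 4 largest oil sex differences per class and direction, 8 main chains (Col1a1, Col1a2, Col3a1, Col4a1, Col4a2, Col6a1, Col6a2 and Col6a3), the 2 members of widest spread and up to 3 genes per partner list. Other genes named were chosen after their values were seen, as was the fit without 3 MGC arrays. Among G1R MGCs the treatment and the place in the array run cannot be told apart. The fit was checked on simulated data. Adamts2, Loxl2, Insl3, Hba-a1, Hbb-b1 and Fbn1 were not analysed here. Array number limits the precision.

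Same-numbered arrays of compared groups deviated with correlations from -0.35 to 0.13, so the numbers were not taken as pairs.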

Additional observations from a re-analysis of the deposited data

How the results depend on the processing

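The counts of collagen probes passing in the 13 comparisons were recomputed with unmoderated least squares, only the arrays compared, a filter on dim probes, cyclic loess, weights for array quality, a replicate block, and each array left out in turn. The shares of all probes passing in these fits were not counted. No called difference among the named chains turned its sign under these alternatives, and other members were recomputed only in the counts. Higher probes with VZ in the sex comparison numbered 8 with array quality weights, against 5 in the fit as reported, and VZ against oil in G1R MGCs gave 6 instead of 0. For G2R against G1R oil MGCs, the 1 higher and 4 lower probes became 0 and 0 when only those arrays were fitted, the lower count was 0 with cyclic loess and 1 with the replicate block, and leaving out 1 array gave 0 to 1 higher and 0 to 2 lower. BPA against oil in G1R MGCs ranged between 0 and 2 passing when 1 array was left out. The cause was not tested. The replicate block changed no other count by more than 1.5 times: the oil sex comparison had 29 lower and 3 higher with it. Lower oil probes ranged from 19 to 27 without 1 array. With DEHP in FGCs, leaving out 1 array leaves 1, which is assumed to vary like the other groups. The number of arrays, 2 or 3 per group, limits the precision.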
